A study of Mus musculus with 2 samples.

Results

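Cubn, Amn, Lrp2 and Dab2 encode an apical receptor system for the uptake of proteins and vitamins, and they were read here in the nuclei of mouse embryos at embryonic day 7.0. The genes were taken by symbol from the gene rows of the deposited matrix, together with every accessibility peak within 50 kb of a transcription start of theirs. All 4 genes were found among 32285 genes, with 87 of 229480 peaks: 19 around Cubn, 16 around Amn, 27 around Lrp2 and 25 around Dab2. The series held 1 nuclear RNA library and 1 chromatin accessibility library prepared from the same pool of embryos, and all 15341 barcodes carried both assays. No genotype, treatment or embryo of origin was given for any barcode, so the groups compared below are groups of nuclei within that pool. The labels also carried a goblet cell type, small intestine and distal colon tissues and a RedMUC298trTg strain, which contradict the title and the age. The ileum expresses Cubn and Amn too, so the label bears on these genes: over all barcodes the 8 goblet and intestinal genes of a marker list summed to 393 UMIs (2.16 CPM, counts per 1000000 UMIs), against 1961 CPM for 10 visceral endoderm genes and 1618 CPM for 8 epiblast genes. With 1 library per assay there was no replicate and no test. Every interval given is a 95% interval that covers counting error only.

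Cubilin, the product of Cubn, is a large peripheral membrane protein that binds many ligands, among them the complex of intrinsic factor with vitamin B12, apolipoprotein A-I, albumin and transferrin. It has no transmembrane segment, and amnionless, the product of Amn, anchors it and carries it to the apical surface. Megalin, the product of Lrp2, is a giant receptor of the lipoprotein receptor family that shares ligands and the route of uptake with cubilin. Disabled-2, the product of Dab2, is an adaptor that links the tails of such receptors to clathrin coats. The visceral endoderm is the absorptive layer that surrounds the early mouse embryo and takes up maternal nutrients before a placenta forms, and these receptors are among its known markers.

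The RefSeq table held promoters for all 4 genes, on the build GRCm38.p6. The 250 bases upstream of each RefSeq start are shown because promoter accessibility differed among the members in the results below. For Cubn and for proximal Dab2 the RefSeq start differs slightly from the start in the matrix, which is the start given in the next paragraph. Dab2 had starts 86991 bp apart, called here distal and proximal, and both windows are shown. Capitals mark matches to the motifs searched on both strands: HNF4 (CAAAGTCCA), the GATA motif AGATAA and its variant form TGATAA, and the SOX motif ACAAAG and its variant form ACAATG.
Cubn promoter, chr2:13491877-13492126, minus strand: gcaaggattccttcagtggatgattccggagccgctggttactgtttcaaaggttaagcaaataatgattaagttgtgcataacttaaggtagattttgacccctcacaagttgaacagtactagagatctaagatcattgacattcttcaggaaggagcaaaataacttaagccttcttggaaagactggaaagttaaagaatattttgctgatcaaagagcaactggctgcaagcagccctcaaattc
Amn promoter, chr12:111270846-111271095, plus strand: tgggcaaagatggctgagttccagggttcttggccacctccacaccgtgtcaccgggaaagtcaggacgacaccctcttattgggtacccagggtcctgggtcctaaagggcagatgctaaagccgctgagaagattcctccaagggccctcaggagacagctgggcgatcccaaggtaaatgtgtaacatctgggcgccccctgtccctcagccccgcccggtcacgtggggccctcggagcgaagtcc
Lrp2 promoter, chr2:69586030-69586279, minus strand: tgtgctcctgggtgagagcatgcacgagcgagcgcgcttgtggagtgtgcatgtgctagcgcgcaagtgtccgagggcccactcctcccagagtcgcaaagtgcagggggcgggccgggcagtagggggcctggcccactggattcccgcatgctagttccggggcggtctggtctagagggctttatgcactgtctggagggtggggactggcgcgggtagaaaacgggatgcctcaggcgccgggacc
Dab2 distal promoter, chr15:6299539-6299788, plus strand: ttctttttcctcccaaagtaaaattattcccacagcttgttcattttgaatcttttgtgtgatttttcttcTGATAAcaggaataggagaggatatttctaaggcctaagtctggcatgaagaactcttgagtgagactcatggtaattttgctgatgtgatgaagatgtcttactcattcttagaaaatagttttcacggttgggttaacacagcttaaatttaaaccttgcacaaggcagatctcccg
Dab2 proximal promoter, chr15:6386498-6386747, plus strand: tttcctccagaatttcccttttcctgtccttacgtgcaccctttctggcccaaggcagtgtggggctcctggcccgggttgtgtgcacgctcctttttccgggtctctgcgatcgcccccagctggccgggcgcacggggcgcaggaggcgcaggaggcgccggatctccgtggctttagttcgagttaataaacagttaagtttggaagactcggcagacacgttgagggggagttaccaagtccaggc
The Cubn window was poor in G and C (39.6%, with 2 CpG dinucleotides), as was the distal window of Dab2 (36.8%, with 2 CpG). The windows of Lrp2 (66.4%, 18 CpG), Amn (61.2%, 11 CpG) and the proximal start of Dab2 (60.0%, 17 CpG) were rich in them, against medians of 52.4% and 6 CpG over 32851 RefSeq promoters. The single match was TGATAA in the distal Dab2 window, 179 bases upstream of the start. Of all promoters, 7.94% held TGATAA. HNF4 was present in 0.384% of them, AGATAA in 9.99%, ACAAAG in 16.5% and ACAATG in 10.7%. The windows of Cubn, Amn, Lrp2 and the proximal start of Dab2 held none of these motifs, which says nothing of the factors themselves.

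The genes differ widely in length, which may matter for counts of nuclear RNA. Cubn (ENSMUSG00000026726) starts at chr2:13491813 on the minus strand and spans 215.5 kb in RefSeq, and Lrp2 (ENSMUSG00000027070) lies on the same chromosome and strand, with starts from 69586029 to 69586065 and a span of 161.7 kb. Amn (ENSMUSG00000021278) starts at chr12:111271095 on the plus strand and spans only 5.33 kb. Dab2 (ENSMUSG00000022150) spans 140.9 kb on chromosome 15 from its distal start at 6299788, or 53.9 kb from its proximal start at 6386779. No peak lay within 21297 bp of the distal start, while the proximal start lay inside a peak. The windows also reach the starts of the non-coding genes A230087F16Rik, 13.7 kb from Amn, and Gm16311, 10.1 kb from Dab2, so a peak in a window need not belong to the member.

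After depth limits and removal of 1100 doublet calls, 12796 nuclei remained (83.4% of barcodes), with a median of 10471 UMIs and 17350 peak counts. To keep the definition of a cell class apart from the measurement, RNA was read in classes defined from accessibility, and accessibility was read in classes defined from RNA, and the members and their peaks were left out of both clusterings. Marker lists named 703 nuclei visceral endoderm-like by accessibility (5.49%, interval 5.11 to 5.90) and 1831 by RNA (14.3%, interval 13.7 to 14.9). A further 3 accessibility clusters led by the visceral endoderm list, of 908, 832 and 657 nuclei, stayed unnamed, because another list came close to it, another list had a marker among the leading genes, or the cluster was shallow. All 4093 nuclei of accessibility clusters led by an endoderm list were therefore clustered again into 10 subsets, which are called here by their leading genes. Those named for depth are a subset of 643 nuclei with a median of only 1785 UMIs, 1 of 290 nuclei with a median of 2908 peak counts and 1 of 101 nuclei with a median of 24228 UMIs. Of the nuclei of low RNA depth 97.2%, and of those of high depth 77.2%, fell by RNA in clusters led by no endoderm list.

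RNA of all 4 members was highest in the visceral endoderm among the classes named from accessibility. In the 703 visceral endoderm-like nuclei Cubn stood at 7951 CPM (interval 7894 to 8008), Dab2 at 1952 CPM (1924 to 1980), Lrp2 at 1133 CPM (1112 to 1154) and Amn at 528 CPM (513 to 542). Over all other nuclei the fold was 7.94 for Cubn (7.87 to 8.01), 6.02 for Lrp2 (5.89 to 6.16), 5.09 for Dab2 (5.01 to 5.18) and 4.06 for Amn (3.94 to 4.19). Those other nuclei include the unnamed endoderm clusters. Among classes named from RNA the visceral endoderm-like nuclei were the highest for Cubn, Amn and Dab2, while Lrp2 stood at 898 CPM there (886 to 909) and at 932 CPM (891 to 976) in an RNA cluster of 152 nuclei led by Epas1, Lama1 and Igfbp1, with overlapping intervals. The parietal endoderm list scored highest in that cluster, but it held Cubn at 3337 CPM and shared leading genes with the Igfbp1/Pitx1 subset, so it is called here the Epas1/Lama1 cluster. Against the 8703 nuclei of clusters led by no endoderm list the folds were 75.6, 12.6, 25.6 and 12.4 in the same order, and with classes defined from RNA they were 22.5, 7.84, 12.3 and 9.19 against all others. The size of each fold thus depended on which nuclei formed the comparison, while all 4 members were higher in each of these comparisons. Of 17686 genes with at least 50 UMIs, 9.36% were at least 2-fold higher in the 703 nuclei than in all others and 25.8% at least 2-fold lower. Counts of genes of different length may not compare directly, and whether they rise in proportion to gene span was not tested. Per kb of gene span, the visceral endoderm-like CPM was 99.0 for Amn, 36.9 for Cubn, 13.8 for Dab2 and 7.01 for Lrp2. Amn, the lowest by count, was thus the highest by this scale. Counted from its proximal start, Dab2 stood at 36.2 CPM per kb.

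**Figure D1:**
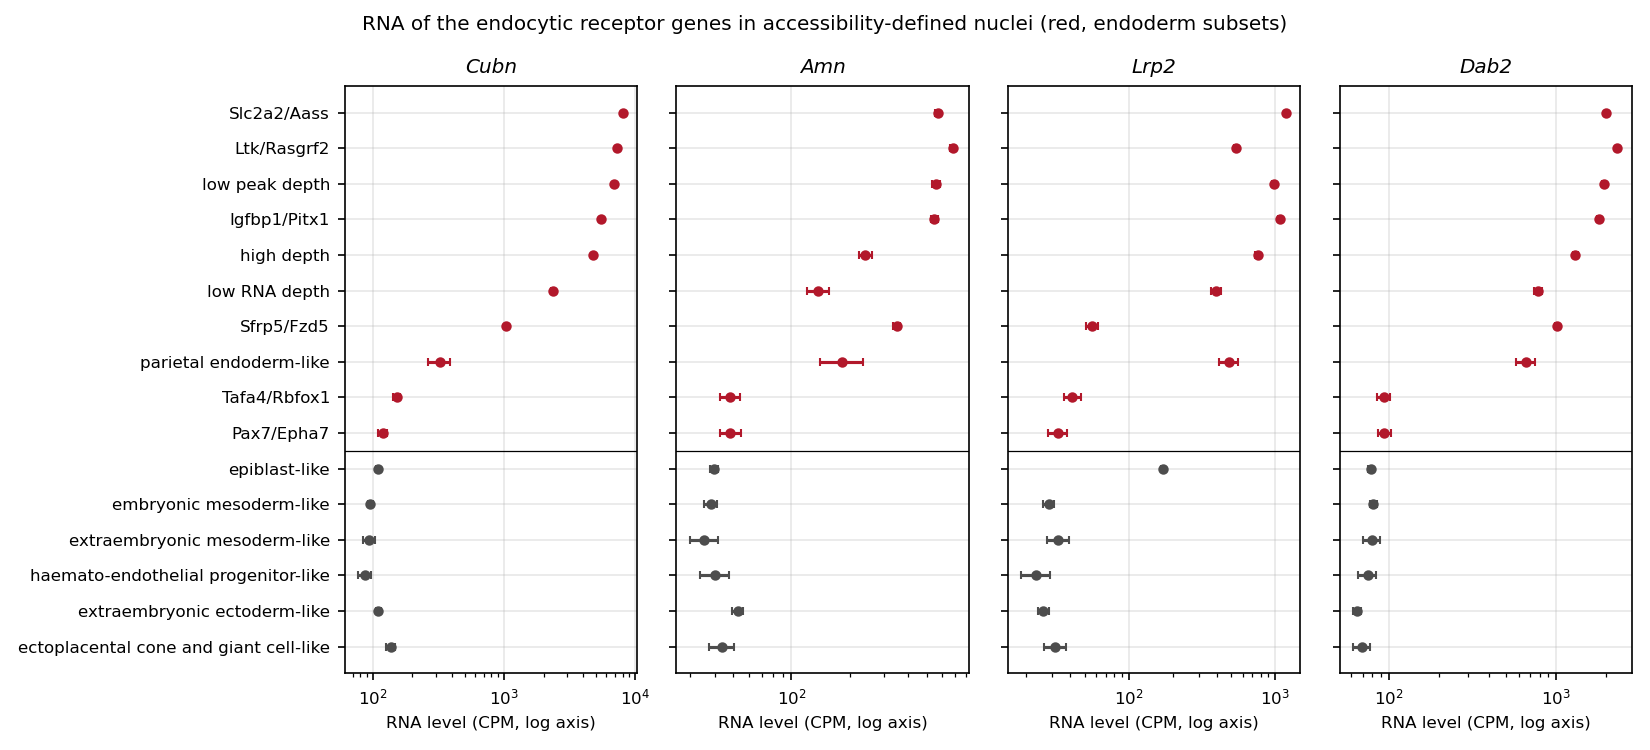
RNA level of each gene (CPM on a log axis; points, summed counts; bars, 95% Poisson intervals) in the 10 accessibility-defined endoderm subsets (red) and 6 other accessibility-defined classes (grey). All 4 genes are high in the Slc2a2/Aass, Ltk/Rasgrf2 and Igfbp1/Pitx1 subsets, Lrp2 stands at only 55.9 CPM in the Sfrp5/Fzd5 subset, and epiblast-like nuclei stand above the other grey classes for Lrp2 only.

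Among the endoderm subsets the members shared a broad order but parted in the details. Cubn was highest in the Slc2a2/Aass subset of 815 nuclei at 8085 CPM (8032 to 8139), followed by the Ltk/Rasgrf2 subset of 405 nuclei at 7218 CPM (7148 to 7288). It stood at 6849 CPM in the subset of low peak depth and at 5441 CPM in the Igfbp1/Pitx1 subset of 306 nuclei. The intervals of consecutive subsets in this order did not overlap for Cubn. Its levels then stepped down through 4755 CPM in the subset of high depth, 2366 CPM in that of low RNA depth and 1029 CPM in the Sfrp5/Fzd5 subset of 524 nuclei, to 322 CPM in 26 parietal endoderm-like nuclei led by Thbd and Nid1. The lowest were the Tafa4/Rbfox1 subset of 480 nuclei, at 151 CPM, and the Pax7/Epha7 subset of 503 nuclei, at 119 CPM. Both are low in visceral endoderm markers: the mean log2 level of that list was 4.88 and 4.99, against 8.55 in the Slc2a2/Aass subset. The list for anterior streak and definitive endoderm stood at 6.31 and 7.76. In the Tafa4/Rbfox1 subset the epiblast list (7.15) and the node and axial list (3.78) were the highest of the subsets. Of its nuclei, 25% fell by RNA in clusters led by no endoderm list. For Cubn the Tafa4/Rbfox1 (141 to 162) and Pax7/Epha7 (110 to 129) subsets lay above the pooled 105 CPM (103 to 107) of nuclei outside the endoderm. They were not above every cluster there, since an epiblast-like cluster held 149 CPM and an extraembryonic ectoderm-like cluster 174 CPM. The RNA-defined Tafa4/Rbfox1 and Pax7/Epha7 subsets held 94.5 and 96.2 CPM, against 93.3 CPM in RNA-defined epiblast-like nuclei.

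Amn and Dab2, the anchor and the adaptor, were both highest in the Ltk/Rasgrf2 subset. Amn reached 681 CPM there (660 to 703), and its levels in the Slc2a2/Aass subset (569 CPM, 555 to 583), the subset of low peak depth (556 CPM, 530 to 583) and the Igfbp1/Pitx1 subset (548 CPM, 526 to 570) had overlapping intervals. Dab2 reached 2327 CPM (2288 to 2367) in the Ltk/Rasgrf2 subset, and its levels in the Slc2a2/Aass subset (1996 CPM, 1970 to 2023) and the subset of low peak depth (1942 CPM, 1893 to 1991) overlapped. Both kept much of their level in the Sfrp5/Fzd5 subset, with Amn at 350 CPM (337 to 363) and Dab2 at 1011 CPM (989 to 1034). In the Pax7/Epha7 and Tafa4/Rbfox1 subsets they stood at 48.3 and 48.3 CPM for Amn and at 94.4 and 93.6 CPM for Dab2, with overlapping intervals.

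Lrp2 followed a different order. It was highest in the Slc2a2/Aass subset at 1184 CPM (1164 to 1205) and next in the Igfbp1/Pitx1 subset at 1074 CPM (1044 to 1105), but the Ltk/Rasgrf2 subset, where Amn and Dab2 peaked, held 539 CPM (520 to 558), which is 2.20-fold lower than the Slc2a2/Aass subset (2.11 to 2.29). The 26 parietal endoderm-like nuclei held 482 CPM (411 to 562), an interval that overlaps that of the Ltk/Rasgrf2 subset. In these nuclei Lrp2 was 2.46-fold lower than in the Slc2a2/Aass subset (2.11 to 2.89), while Cubn was 25.1-fold lower (20.8 to 30.5). Amn was 3.10-fold lower (2.42 to 4.05) and Dab2 3.03-fold lower (2.65 to 3.47), with intervals that overlap that of Lrp2. In the Sfrp5/Fzd5 subset Lrp2 fell to 55.9 CPM (50.9 to 61.4), close to the 41.3 CPM (36.1 to 47.1) and 32.7 CPM (27.9 to 38.0) of the Tafa4/Rbfox1 and Pax7/Epha7 subsets, whose intervals overlap.

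The members parted by different amounts between the Slc2a2/Aass subset, which was the highest of the subsets for the visceral endoderm marker A1cf (41.8 CPM), and the Sfrp5/Fzd5 subset, the highest for the anterior visceral endoderm marker Sfrp5 (124 CPM). Lrp2 was 21.2-fold higher in the former (19.3 to 23.3) and Cubn 7.85-fold higher (7.68 to 8.03), whereas Dab2 differed by 1.97-fold (1.92 to 2.03) and Amn by 1.63-fold (1.56 to 1.70). The share of all genes at least 2-fold higher in the Slc2a2/Aass subset was 9.5%, and 11.3% were at least 2-fold lower. With subsets defined from RNA the subset highest for A1cf was another, led by Unc5c, Bmp6 and Pkhd1, and the Amn fold over the Sfrp5/Fzd5 subset was 1.17. RNA-defined subsets divided the visceral endoderm differently: a subset of 403 nuclei led by Apoc2 and Fzd4 held the most Amn (726 CPM) but less than the maximum of Cubn (4128 CPM). The Sfrp5/Fzd5 subset was found by either assay, since 490 nuclei were shared, 93.5% of the accessibility-defined and 93.7% of the RNA-defined subset. Median depth was 12356 UMIs in the Slc2a2/Aass subset and 14326 in the Sfrp5/Fzd5 subset. Markers of other cells moved with this contrast: the mean log2 level of the list for anterior streak and definitive endoderm was 3.996 in the Slc2a2/Aass subset and 7.11 in the Sfrp5/Fzd5 subset, and that of the epiblast list was 5.31 and 6.03. Their part in the difference was not tested.

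Per nucleus, the same contrast appeared after each nucleus was thinned to 5000 UMIs. In 795 nuclei of the Slc2a2/Aass subset the median was 40 UMIs of Cubn, 9 of Dab2, 5 of Lrp2 and 2 of Amn, and 84.5% of the nuclei held a UMI of every member. In 499 nuclei of the Sfrp5/Fzd5 subset the medians were 2 for Cubn, 4 for Dab2, 1 for Amn and 0 for Lrp2, and 13.2% held a UMI of every member. A UMI of Lrp2 was found in 17.4% of the Sfrp5/Fzd5 nuclei (14.2 to 21.1), against 97.4% in the Slc2a2/Aass subset. For comparison, 10.2% of extraembryonic ectoderm-like nuclei held a UMI of Lrp2 (8.52 to 12.05). The summed level there was 26.2 CPM against 55.9 CPM in the Sfrp5/Fzd5 subset. Without thinning the shares were 38.7% and 24.8% at median depths of 14326 and 12483 UMIs. Dab2, by contrast, was detected in 92.8% of the Sfrp5/Fzd5 nuclei and Amn in 74.5%, against 25.5% and 21.0% in extraembryonic ectoderm-like nuclei. Thinning left out 20 nuclei of the Slc2a2/Aass subset, 25 of the Sfrp5/Fzd5 subset and 119 extraembryonic ectoderm-like nuclei as too shallow. The Sfrp5/Fzd5 nuclei were uneven in Cubn, with quartiles of 1 and 5 UMIs and a maximum of 62.

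In the Slc2a2/Aass, Ltk/Rasgrf2 and Sfrp5/Fzd5 subsets, thinned counts of Cubn moved with those of Dab2. In the Slc2a2/Aass and Ltk/Rasgrf2 subsets they also moved with those of Lrp2. The Spearman correlation between Cubn and Dab2 was 0.33 over 795 nuclei of the Slc2a2/Aass subset, 0.40 over 393 of the Ltk/Rasgrf2 subset and 0.54 over 499 of the Sfrp5/Fzd5 subset. For Cubn and Lrp2 it was 0.29, 0.48 and 0.13 in the same subsets. Over 293 nuclei of the Igfbp1/Pitx1 subset both correlations were 0.36. In the Pax7/Epha7 and Tafa4/Rbfox1 subsets, where Cubn was lowest, both correlations lay between -0.0053 and 0.19, thinned to 5000 or to 3000 UMIs. Pairs with Amn lay between -0.14 and 0.24 in the 5 largest visceral endoderm subsets of usual RNA depth. The highest of these, Amn with Cubn and with Dab2 in the Sfrp5/Fzd5 subset (0.24 each), were 0.12 and 0.15 when thinned to 3000 UMIs. The value of 0.29 for Cubn and Lrp2 in the Slc2a2/Aass subset was 0.24 at that depth. Whether pairs with Amn were weaker than the others was not tested, and they are not read further in counts this sparse. Whether Cubn moved more with Dab2 than with Lrp2 was not tested. These are descriptions over nuclei that share a library.

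Outside the endoderm, Lrp2 was highest in epiblast-like nuclei. Epiblast-like nuclei held 170 CPM of Lrp2 (166 to 175, n = 3682 nuclei), which was 5.98-fold above embryonic mesoderm-like nuclei (5.45 to 6.57) and 6.50-fold above extraembryonic ectoderm-like nuclei (5.92 to 7.16). It was 7.31-fold above haemato-endothelial progenitor-like nuclei (5.86 to 9.23), the class with the least Lrp2 at 23.3 CPM. All 5 epiblast-like accessibility clusters were above those classes, at 136 to 197 CPM. Of the clusters left unnamed, 1 of 1015 nuclei led by the primitive streak list was between, at 63.7 CPM (59.2 to 68.4). Another, of 157 nuclei, held 132 CPM (112 to 155). Its highest list was that of the epiblast, at a mean log2 ratio of only 0.358. After thinning, 50.5% of epiblast-like nuclei held a UMI of Lrp2, against 10.2% to 14.7% in the other non-endoderm classes. For the other members, epiblast-like nuclei lay within the range of the other non-endoderm classes. Cubn stood at 109 CPM there and at 86.3 to 136 CPM in those classes, Dab2 at 78.3 against 65.1 to 81.2, and Amn at 39.8 against 35.4 to 52.8.

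The low counts of Cubn, Amn and Dab2 outside the endoderm were not in the proportions of the visceral endoderm. Visceral endoderm-like nuclei held 15.1 UMIs of Cubn for each of Amn and 4.07 for each of Dab2, while nuclei of clusters led by no endoderm list held 2.46 and 1.38. Among the 6 non-endoderm classes the ratio of Cubn to Amn ran only from 2.08 to 3.12, and that of Cubn to Dab2 from 1.15 to 1.98. Free RNA in droplets gives counts in nuclei that do not express a gene, and its part in these low levels was not tested.

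Over the accessibility clusters, the members were most alike in a group without Lrp2. The pattern of Cubn over 20 clusters of at least 50 nuclei correlated with that of Dab2 at 0.99 and with that of Amn at 0.98 (Pearson, log2 of CPM + 1), and Dab2 with Amn at 0.99. Lrp2 correlated with Cubn at 0.83, with Dab2 at 0.82 and with Amn at 0.79. Of 12306 genes with at least 500 UMIs, those most like Cubn were Slc13a4, a sodium-coupled sulphate transporter, Abcc2, an apical efflux pump, Dab2 itself, Myo6, the motor that draws endocytic vesicles inward, and Pde6c (0.99 each). Those most like Amn were the lysosomal protease Ctsh, the tight junction gene Cldn2, Apoa1, the fibrinogen gene Fgb and Ttr (0.99 each), of which Apoa1 and Ttr are in the marker list. For Dab2 they were Slc13a4, Muc13, Cubn, Apob and Ctsh (0.99 each). For Lrp2 the likeness was lower: the threonine dehydrogenase gene Tdh at 0.97, Pls1, a brush border actin bundler, at 0.95, Trim2 at 0.95, and Ano9 and the apical fusion protein Stx3 at 0.94. The clusters share a library and differ in depth.

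Promoter accessibility separated the members in another way. In RNA-defined visceral endoderm-like nuclei over all others, the promoter peak of Amn was 6.59-fold more accessible (5.94 to 7.31; 42.9 against 6.51 CPM, here per 1000000 peak counts) and that of Cubn 5.54-fold (4.75 to 6.46; 19.2 against 3.46). The proximal promoter of Dab2 differed by 2.82-fold (2.59 to 3.06; 49.1 against 17.4), and that of Lrp2 by 1.60-fold (1.45 to 1.76; 31.6 against 19.8). The Lrp2 promoter was accessible in every class named from RNA, from 8.59 CPM in extraembryonic ectoderm-like nuclei to 34.3 CPM in the Epas1/Lama1 cluster, with 26.0 CPM in epiblast-like nuclei. The promoter of Cubn, by contrast, was at 0.271 CPM in extraembryonic ectoderm-like, 1.05 CPM in embryonic mesoderm-like, 2.48 CPM in primitive streak-like and 4.57 CPM in epiblast-like nuclei. Of the members, Cubn and Amn thus had the promoters that differed most, and the promoters of Dab2 and Lrp2 held at least 8.59 CPM in every RNA cluster. Over the 17 RNA clusters the promoter correlated with the gene's RNA at 0.93 for Dab2, 0.91 for Amn, 0.84 for Cubn and 0.83 for Lrp2 (Pearson over log2 of CPM + 1, given as a description).

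**Figure D2:**
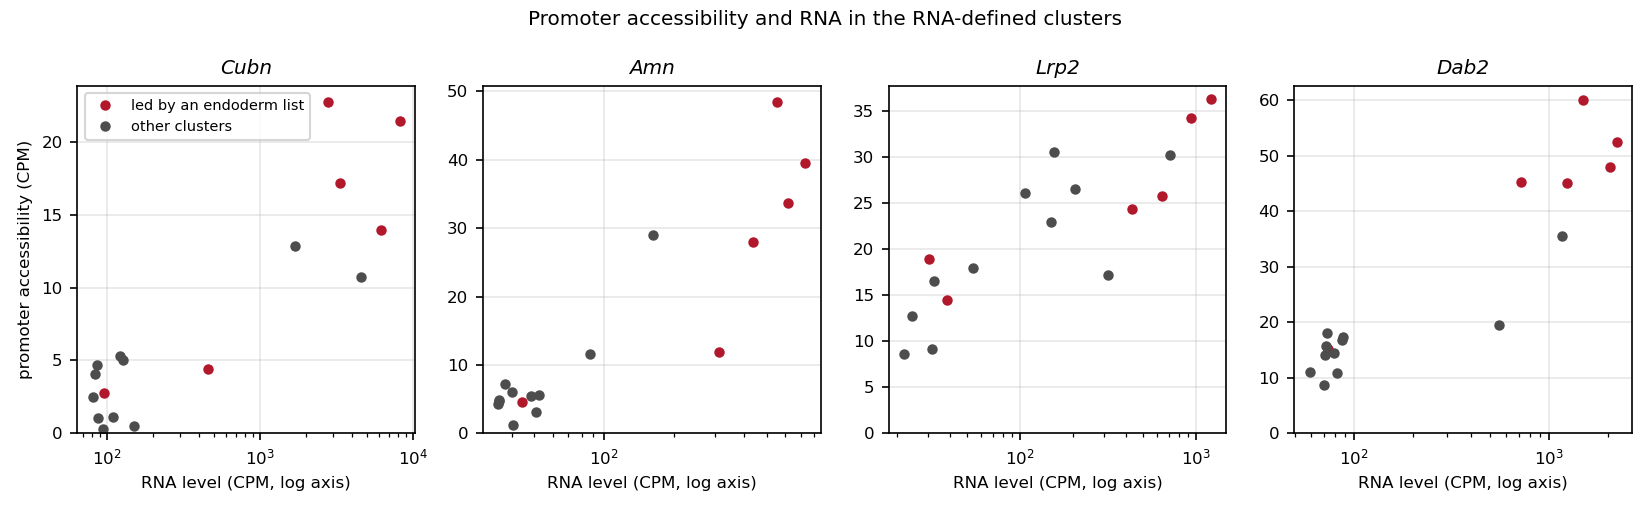
Promoter accessibility (CPM of peak counts) against RNA level (CPM, log axis) for each gene in the 17 RNA-defined clusters; red points are clusters led by an endoderm marker list. The promoter of Cubn approaches 0 in several clusters, with a lowest value of 0.271 CPM, and that of Amn reaches 1.24 CPM, while no cluster lies below 8.59 CPM for Lrp2 or 8.66 CPM for Dab2.

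Around the members, most peaks of Cubn and Dab2 were more accessible in the visceral endoderm. At least 2-fold higher were 14 of 18 peaks of Cubn with at least 100 counts, 20 of 25 of Dab2, 12 of 27 of Lrp2 and 3 of 16 of Amn, where 12.9% of 222075 peaks passed that bound. At least 2-fold lower were 0 for Cubn, 0 for Dab2, 3 for Lrp2 and 4 for Amn, against 40.9% of all peaks. The median log2 fold was 2.44 for the peaks of Cubn, 2.41 for Dab2, 0.68 for Lrp2 and 0.08 for Amn, and -0.67 for all peaks.

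At Cubn the most accessible peaks in visceral endoderm-like nuclei were 1 inside the gene, 2.20 kb from the start (chr2:13489199-13490020, 21.3 CPM, 14.3-fold over others, 11.8 to 17.3), which was also the highest in fold, and 2 upstream, at 23.4 kb (chr2:13514769-13515632, 20.8 CPM, 5.03-fold) and 32.0 kb (chr2:13523327-13524231, 19.9993 CPM, 6.18-fold). The peak with the lowest fold lay 25.9 kb inside the gene (0.745-fold, 0.383 to 1.33). The peak at 23.4 kb and another at 17.9 kb upstream, the latter chosen after its values were seen, were also accessible in epiblast-like nuclei, at 5.16 and 7.69 CPM, while embryonic mesoderm-like nuclei held 1.08 and 1.12 CPM there. Cubn RNA in accessibility-defined epiblast-like nuclei was only 1.14-fold that of embryonic mesoderm-like nuclei (1.07 to 1.21).

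At Amn the signal in visceral endoderm-like nuclei was concentrated at the promoter and at a peak 2.93 kb upstream (chr12:111267716-111268606), which held 54.7 CPM in these nuclei and was 9.97-fold more accessible than in others (8.97 to 11.1). The next by counts in these nuclei, 1.503 kb inside the gene, differed little, at 8.66 against 6.89 CPM (1.26-fold, 1.05 to 1.49). Peaks 4.48 and 13.7 kb downstream of the start had more counts over all nuclei and were lower in the visceral endoderm (0.323-fold, 0.247 to 0.415, and 0.482-fold, 0.380 to 0.606). The lowest in fold lay 14.9 kb downstream of the start, beyond the end of the gene (0.271-fold, 0.177 to 0.398), and held 15.01 CPM in primitive streak-like nuclei, 13.5 CPM in the RNA-defined Tafa4/Rbfox1 subset and 12.2 CPM in embryonic mesoderm-like nuclei. The start of A230087F16Rik is within that distance of Amn.

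At Lrp2 the peak that best marked the visceral endoderm was distal. It lay 18.0 kb upstream (chr2:69603600-69604521), held 28.9 CPM against 1.02 CPM in other nuclei and differed by 28.3-fold (23.0 to 35.1), where the promoter of the same gene differed by 1.60-fold. A peak 26.4 kb upstream held 16.1 CPM, 2.76-fold above others. The peak with the lowest fold, 6.62 kb upstream (chr2:69592277-69593092), had the opposite pattern: it held 7.005 CPM in epiblast-like nuclei against 0.683 CPM in visceral endoderm-like nuclei, a 10.3-fold difference (5.91 to 19.5), and 0.485 CPM in embryonic mesoderm-like nuclei. Other upstream peaks were accessible in both classes: a peak 2.10 kb upstream held 14.0 CPM in epiblast-like and 5.37 CPM in visceral endoderm-like nuclei, and the peak 26.4 kb upstream held 5.33 and 16.1 CPM. A peak 22.3 kb inside the gene, chosen after its values were seen, held 11.98 CPM in haemato-endothelial progenitor-like nuclei and 0.621 CPM in visceral endoderm-like nuclei, whereas the same RNA-defined classes held 32.5 and 898 CPM of Lrp2 RNA.

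At Dab2 the peak with the most counts in visceral endoderm-like nuclei lay 11.5 kb upstream of the proximal start (chr15:6374878-6375776). It held 65.7 CPM and was 12.3-fold more accessible there than in others (11.1 to 13.7). A peak 39.6 kb upstream of the distal start, 126.6 kb from the proximal one (chr15:6259747-6260645), held 38.0 CPM and was 11.2-fold higher than in others (9.82 to 12.8). The highest fold belonged to a weaker peak 32.3 kb upstream of the distal start (16.9-fold, 10.9 to 26.9, 3.88 CPM), and the lowest to 1 at 23.3 kb upstream of it (0.676-fold, 0.383 to 1.12).

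**Figure D3:**
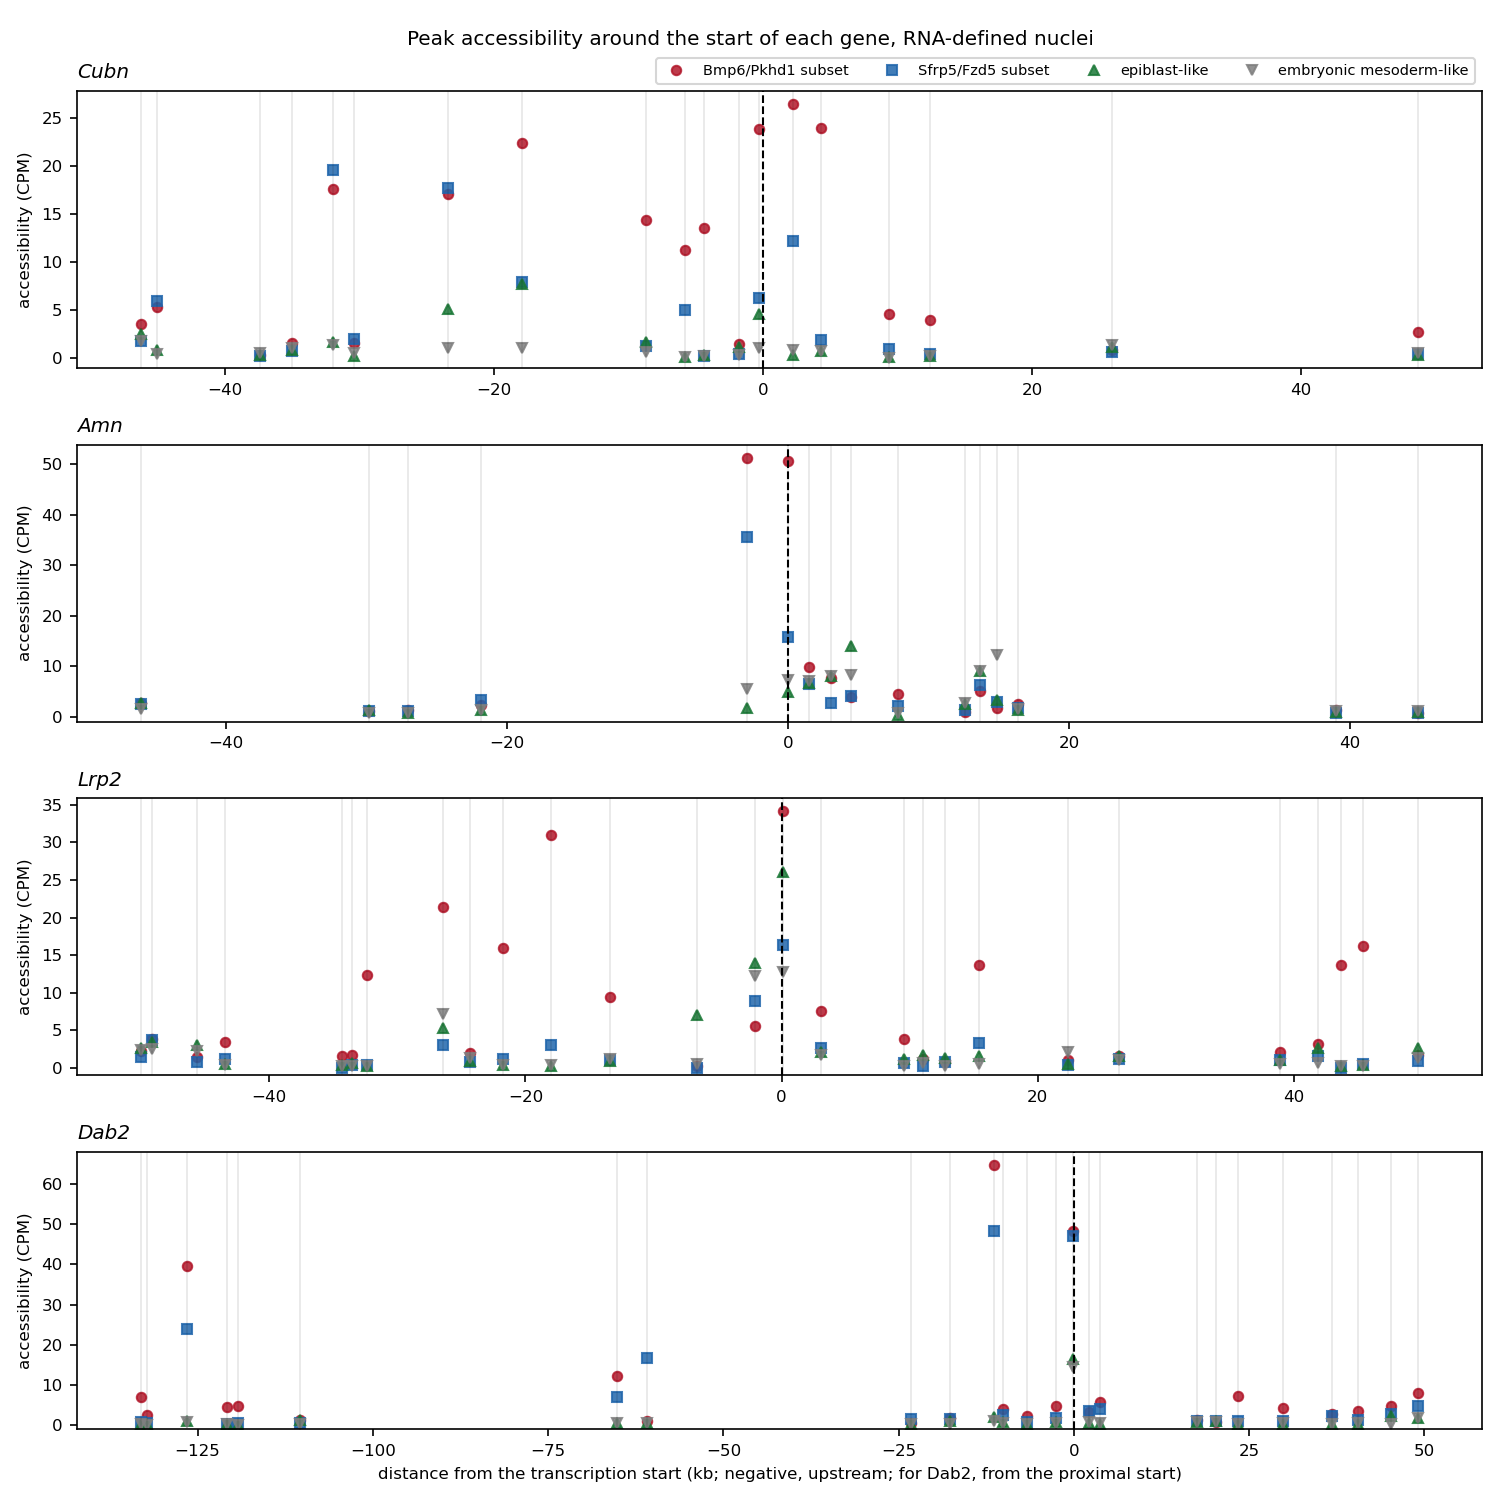
Accessibility (CPM of peak counts) of every peak near each gene against its distance from the start in kb, in 2 RNA-defined endoderm subsets and in epiblast-like and embryonic mesoderm-like nuclei; for Dab2 the distance is from the proximal start. In the Sfrp5/Fzd5 subset (blue) the peaks of Lrp2 sit at or below 16.4 CPM, while the Dab2 promoter and its peak 11.5 kb upstream remain at 47.1 and 48.4 CPM.

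The contrast between endoderm subsets reached the chromatin of each member differently. RNA-defined subsets were used here: the Bmp6/Pkhd1 subset of 541 nuclei, highest for A1cf, and the Sfrp5/Fzd5 subset of 523 nuclei. At least 2-fold higher in the former were 20 of 27 peaks of Lrp2, 12 of 18 of Cubn, 10 of 25 of Dab2 and 3 of 16 of Amn, against 24.3% of all peaks. At least 2-fold lower were 2 peaks of Dab2 and 0 of the other members, against 25.7% of all peaks. These calls used the fold alone, with the count minimum set over all nuclei, so some rest on few counts. A Lrp2 peak called higher held 3 counts in the Bmp6/Pkhd1 subset and 0 in the Sfrp5/Fzd5 subset. Another held 13 and 2 (0.777 to 257), and a Dab2 peak called lower held 5 and 14 (0.0544 to 1.33). For the Lrp2 peaks 18.0 kb upstream and 45.3 kb inside the gene, given below, the whole interval lay past 2-fold. For the Lrp2 promoter, also called higher, it did not.

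The peak 18.0 kb upstream of Lrp2 held 31.0 CPM in the Bmp6/Pkhd1 subset and 3.09 CPM in the Sfrp5/Fzd5 subset (10.0-fold, 6.02 to 18.0), and the Lrp2 promoter 34.2 and 16.4 CPM (2.09-fold, 1.62 to 2.71). The same upstream peak held 33.0 CPM in the RNA-defined Ltk/Rasgrf2 subset. Lrp2 RNA there was 543 CPM, against 1307 CPM in the Bmp6/Pkhd1 subset. A peak 45.3 kb inside Lrp2, chosen after its values were seen, held 16.3 and 0.515 CPM (31.6-fold, 10.5 to 156). Of the other 26 peaks of Lrp2, 17 had a larger fold than its promoter and 9 a smaller one, counted by fold alone. The lowest fold was 0.615 (0.381 to 0.983) at a peak 2.10 kb upstream. At Cubn the promoter held 23.8 and 6.28 CPM (3.79-fold, 2.57 to 5.73) and the peak 2.20 kb inside the gene 26.4 and 12.2 CPM (2.18-fold, 1.61 to 2.98). The peaks 23.4 and 32.0 kb upstream of Cubn did not differ beyond counting error, at 17.1 against 17.7 CPM (0.964-fold, 0.720 to 1.29) and 17.5 against 19.6 CPM (0.896-fold, 0.672 to 1.20). The peak 17.9 kb upstream, in contrast, held 22.4 against 7.93 CPM (2.83-fold, 1.96 to 4.16).

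For Amn the promoter held 50.6 and 15.8 CPM (3.21-fold, 2.51 to 4.15) and the peak 2.93 kb upstream 51.3 and 35.6 CPM (1.44-fold, 1.19 to 1.75). The promoter difference was larger than that of its RNA, which was 1.17-fold between these RNA-defined subsets. The Dab2 promoter was at 48.4 and 47.1 CPM (1.03-fold, 0.860 to 1.23), the peak 11.5 kb upstream at 64.7 and 48.4 CPM (1.34-fold, 1.13 to 1.58) and the peak 39.6 kb upstream of the distal start at 39.7 and 24.0 CPM (1.65-fold, 1.32 to 2.08). A peak 26.2 kb downstream of the distal start of Dab2 (chr15:6325519-6326378), chosen after its values were seen, ran the other way, at 1.10 CPM in the Bmp6/Pkhd1 subset and 16.6 CPM in the Sfrp5/Fzd5 subset, with 8.47 CPM in the RNA-defined Ltk/Rasgrf2 subset. The RNA-defined Tafa4/Rbfox1 and Pax7/Epha7 subsets, where Dab2 RNA was low, held 7.998 and 4.66 CPM there. The peak was near 0 in embryonic mesoderm-like nuclei (0.597 CPM) and epiblast-like nuclei (0.628 CPM).

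The wider machinery of uptake was read from lists in the accessibility-defined visceral endoderm-like nuclei over all others, where 9.36% of genes were at least 2-fold higher and 25.8% lower, with a median log2 fold of -0.24 over all genes. Genes listed with megalin differed in direction. Of 13 genes listed as the lipoprotein receptor family and its chaperone, 1 was at least 2-fold higher, the Wnt co-receptor Lrp5 (2.23-fold). Lower were 6, among them Lrp8 (0.130-fold), Vldlr (0.234-fold), Lrp4 (0.267-fold) and Lrp1b (0.327-fold). Another of the 6 was Sort1 (0.233-fold), a listed sorting receptor that is not a member of that family. The median log2 fold of the list was -0.36. The megalin chaperone Lrpap1 was at 212 against 115 CPM (1.84-fold).

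Of 18 clathrin coat and adaptor genes, 2 were higher, the motor Myo6 (5.29-fold, 894 against 169 CPM) and the clathrin heavy chain Cltc (3.06-fold), and 2 were lower. The latter were Numbl (0.332-fold) and Dab1 (0.129-fold, 28.0 against 217 CPM), the relative of Dab2 that acts in neurons. The median log2 fold of this list was 0.37. Of 14 genes of endosomes, recycling and lysosomes, 7 were higher and 0 lower, with a median of 1.06. The highest were the proteases Ctsb (4.03-fold) and Ctsl (3.18-fold), the lysosomal membrane gene Lamp2 (2.87-fold) and the proton pump subunit Atp6v1a (2.46-fold).

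Of 8 genes of vitamin B12 handling with at least 50 UMIs, 1 was higher, the blood carrier Tcn2 (4.07-fold), and 0 were lower, with a median of -0.11. Cblif, which encodes the intrinsic factor that cubilin binds in the gut, had 32 UMIs in all kept nuclei. Of 10 genes for proteins known as cargo of cubilin or megalin, 9 were higher, led by the retinol carrier Rbp4 (5.06-fold), transferrin Trf (4.61-fold), Apob (4.59-fold) and the vitamin D carrier Gc (4.46-fold). The remaining gene, Clu, was at 4.08 against 3.68 CPM, and Alb had only 30 UMIs. Since 7 of these genes are also markers that named the class, their direction is no independent result.

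Of 8 apical brush border genes, 6 were higher and 0 lower, with a median of 2.15: Cdhr2 (7.31-fold), Eps8 (6.03-fold), Pdzk1 (5.28-fold) and Espn (5.24-fold) led. Pdzk1 encodes a scaffold that binds the tails of apical membrane proteins. Of 11 endoderm transcription factor genes, 6 were higher, among them Hnf4a (5.13-fold, also a naming marker) and Sox7 (4.27-fold). Lower were Foxa1 (0.368-fold) and Hhex (0.496-fold), and the median was 1.11. The other nuclei include an unnamed cluster of 908 nuclei led by the visceral endoderm list, with Sfrp5 as its first gene. In the Sfrp5/Fzd5 subset Foxa1 stood at 39.2 CPM and Hhex at 96.5 CPM, against 1.99 and 9.83 CPM in the visceral endoderm-like class. Their low folds thus do not hold for all visceral endoderm.

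**Figure D4:**
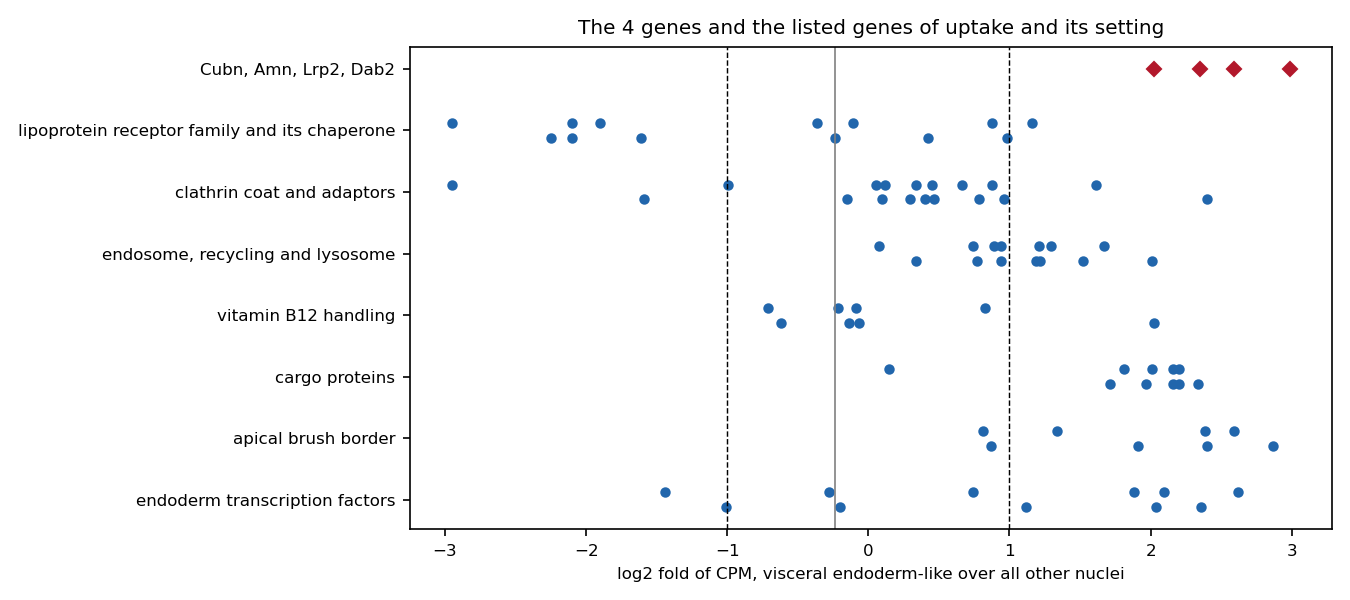
Log2 fold of CPM in accessibility-defined visceral endoderm-like nuclei over all other nuclei for the 4 genes (red) and for each listed gene with at least 50 UMIs (blue); dashed lines mark 2-fold either way and the grey line the median of all genes, -0.24. The 4 genes lie between 4.06-fold and 7.94-fold, and of the lipoprotein receptor genes only Lrp5 lies past the upper dashed line, at 2.23-fold.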

How the data were processed

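Nuclear RNA and chromatin accessibility were measured in nuclei of pooled E7.0 mouse embryos, 1 library each. Cell Ranger ARC 2.0.0 wrote the deposited matrix, per the file headers, and it holds raw counts: UMIs for genes and counts for peaks. The build mm10 is named in the submitters' processing notes, and the peak caller is not given in the sources used here. Of nonzero peak values 86.4% were even, so intervals on accessibility rest on estimated fragments (the count divided by 2, rounded up).

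Nuclei were kept that reached 1000 UMIs, 1000 peak counts and 500 genes with no more than 20% of UMIs mitochondrial, and doublets were called with Scrublet in scanpy 1.11.5. Leiden clustering at resolution 1 (leidenalg 0.10.2) used 30 components of RNA (2000 variable genes) or of peaks, without the members and their peaks, and gave 17 RNA and 21 accessibility clusters. Clusters led by an endoderm list were clustered again at resolution 0.5. A cluster took a name where the marker list with the highest mean log2 ratio reached 0.5 with at least 3 markers raised 1.5-fold. No name was given where another list had more markers among the 10 leading genes, or had as many with 3 raised markers and over 0.5 times that ratio, or where a cluster with no marker there had a median depth far under that of all nuclei. This rule was set after the data were seen. CPM is 1000000 times a summed count over the summed total. Intervals are exact Poisson or binomial. Strand was taken from RefSeq genes, and a promoter spans 1000 bp before a start and 100 bp after it.

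Genes and peaks named are the members, the 5 genes most like each, promoter peaks, the 3 peaks with most counts and the extremes of fold, and from each list up to 4 genes past 2-fold and any the other way. Values of some listed genes, and some motifs, are not reported here. Members and lists were chosen with earlier results of these data known. The calculation of folds was checked on simulated counts for the genes of the comparison of visceral endoderm-like with all other nuclei. There the interval held the true fold of 4 in 96% of 100 genes. These counts were drawn with the counting error that the interval assumes. The check therefore says nothing of spread between nuclei or of the naming of classes. Of the gene identifiers, 32158 were in the reference name table. Alternatives covered resolution, components, doublets, depth limits, the defining assay, promoter and peak windows, thresholds and thinning.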

Additional observations from a re-analysis of the deposited data

How the results depend on the processing

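No paired analysis was possible because each assay had 1 library, and groups of nuclei within it were compared. None of the folds below changed direction in these alternatives. In the order Cubn, Amn, Lrp2 and Dab2, the RNA fold over all other nuclei was 10.3, 4.87, 8.41 and 6.34 at resolution 0.5, 14.8, 6.55, 6.95 and 8.18 at resolution 2, 11.2, 5.28, 8.04 and 6.44 with 20 components, and 12.8, 6.54, 7.05 and 8.27 with doublet calls kept. It was 22.6, 7.69, 8.82 and 11.8 with at least 2000 UMIs and 2000 peak counts, 13.2, 5.40, 9.86 and 7.27 with the members kept in the clustering, 22.5, 9.19, 7.84 and 12.3 with classes defined from RNA, and 75.6, 12.4, 12.6 and 25.6 against clusters led by no endoderm list, a comparison chosen after seeing the data. The accessibility-defined share of visceral endoderm-like nuclei was 9.58% at resolution 0.5, 11.8% at resolution 2, 9.63% with 20 components, 14.4% with doublet calls kept, 14.7% at 2000 counts and 11.8% with the members kept. The RNA-defined share was 10.96% at resolution 0.5, 13.6% at resolution 2, 13.3% with 20 components and 8.53% at 2000 counts.

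Promoter accessibility of Cubn, Amn and Dab2 was 4.19, 4.55 and 1.996-fold higher with doublet calls kept and 4.06, 4.79 and 2.37-fold with classes defined from accessibility. For Cubn, Amn, Lrp2 and Dab2 it was 3.91, 4.63, 1.42 and 2.58-fold at 2000 counts. With 2000 bp to each side it was 7.28, 3.85 and 1.22-fold for Cubn, Amn and Lrp2. For Lrp2 it was 1.78-fold at resolution 0.5, and for Dab2 3.10-fold against clusters led by no endoderm list.

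Between the subsets highest for A1cf and for Sfrp5, Cubn and Dab2 RNA differed by 9.74 and 2.21-fold at resolution 0.5, 9.66 and 2.15-fold with 20 components, 9.54 and 2.19-fold with doublet calls kept, 10.2 and 2.20-fold at 2000 counts and 6.09 and 1.78-fold with the members kept. Cubn differed by 8.45-fold at resolution 2 and Lrp2 by 18.0-fold with the members kept. With subsets defined from RNA, also chosen after seeing the data, Cubn, Amn and Dab2 differed by 8.93, 1.17 and 2.12-fold, and Amn by 1.71-fold at resolution 0.5. In these alternatives the A1cf-highest subset held fewer nuclei than the 815 of the report.

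At 1.5-fold, 5 Amn peaks counted as higher. So did 3 genes of the lipoprotein receptor list, 6 of clathrin and adaptors, 12 of endosomes and lysosomes and 2 of vitamin B12 handling. With no count minimum 2 genes of vitamin B12 handling did. Within 25 kb, 6 Lrp2 and 9 Dab2 peaks were higher, where fewer peaks were counted. Thinned to 3000 UMIs, 70.7% of visceral endoderm-like nuclei held a UMI of Amn, 92.9% of Lrp2 and 98.6% of Dab2, and without thinning 95.02% held 1 of Lrp2 and 96.7% 1 of Dab2. Elsewhere the cause of the change was not tested. Another 69 values moved by less than their counting interval or, for counts, by less than 1.5 times. Thinned to 3000 UMIs, the correlation of Cubn with Dab2 was 0.30, 0.43 and 0.51 in the Slc2a2/Aass, Ltk/Rasgrf2 and Sfrp5/Fzd5 subsets and that of Cubn with Lrp2 was 0.24, 0.47 and 0.12. Weak correlations turned sign with the thinning, as for Cubn with Dab2 in the Tafa4/Rbfox1 subset (-0.0053 to 0.19) and Cubn with Amn in the Ltk/Rasgrf2 subset (-0.040 to 0.077). Depth limits the subset of 643 nuclei with a median of 1785 UMIs, and number limits the 26 parietal endoderm-like nuclei.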
